A study of Vitis vinifera with 9 samples.

Results

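This report concerns the grape genes on the array whose names place them in the making and use of chlorophyll, carotenoids and the plastid isoprenoids that feed both. The members were found by a word search: a probe set of the authors' annotated tables was taken where its gene title or target description held 1 of 20 words, such as magnesium chelatase, porphyrinogen, lycopene or geranylgeranyl. The search found 36 probe sets for 32 genes, among 10471 annotated probe sets with 7773 genes, and 16436 probe sets were tested in all. The search used no change between groups, but the annotated tables list no probe set whose highest intensity is under 53.6 and leave out 5965 of those tested, so that a gene could be a member only if some array reached that level. Of those left out, 488 reached that level too, so that intensity alone did not decide the listing. No probe set matched 4 of the words, which were chlorophyllase, pheophorbide, stay-green and phytoene. Of the 36, 31 probe sets for 27 genes belong to the pathways, and 5 only share a word with them (geranylgeranylated proteins, a protein geranylgeranyl transferase and a tRNA isopentenylpyrophosphate transferase). The names mostly rest on similarity to Arabidopsis proteins, which the annotation calls strong for 1 probe set, moderate for 26 and weak for 7, with none given for 2.

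The leaves came from Vitis vinifera 'Hongbaladuo' vines in a vineyard. Healthy leaves of 30 days were detached in the morning, kept with their petioles in water, and left for a short time in the dark at 25 °C. Their lower surface then received UV-C, short-wave ultraviolet light, at 6 W per square metre for 10 min. The control was sampled at 0 h, and UV-C leaves at 6 h and at 12 h, with 3 replicates of 6 leaves in each group and 1 Affymetrix Grape Genome Array for each replicate, 9 arrays in all. Every group therefore consisted of detached leaves, and none was untreated leaves kept for 6 h or 12 h, so that UV-C cannot be told apart from the time since detachment and the time of day. The 6 h and 12 h comparisons also share the same control arrays.

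Chlorophyll and heme are tetrapyrroles, built in plastids from glutamate. Glutamyl-tRNA reductase opens the pathway, a shared trunk leads to protoporphyrin, and magnesium chelatase commits it to chlorophyll. The plastid methylerythritol phosphate pathway supplies the units of geranylgeranyl diphosphate, the prenyl chain from which carotenoids, the chlorophyll tail and tocopherols are made. In green leaves carotenoids and their oxidised forms, the xanthophylls, protect the photosystems from excess light, and cleavage of xanthophylls leads to the hormone abscisic acid.

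Most probe sets of these pathways were lower after UV-C, and more so at 12 h. A probe set was called when its adjusted p from limma was under 0.05 and its fold change at least 2. Of the 36 members, 12 fell at 6 h (33.3%) and 4 rose (11.1%). Over all probe sets tested 14.7% fell and 11.9% rose at 6 h, and over those of the annotated tables, from which the members were drawn, 21.1% fell and 17.8% rose. At 12 h, 19 members fell (52.8%) and 5 rose (13.9%), beside 17.5% and 14.7% of all probe sets and 25.1% and 21.6% of the annotated ones. Between 6 h and 12 h, 7 members fell and 2 rose (19.4% and 5.56%), beside 4.54% and 2.34% of all probe sets and 6.95% and 3.45% of the annotated ones. The share of members that fell was thus above both backgrounds in each comparison, and the share that rose was below the annotated background at 6 h and 12 h. The median log2 change of the 31 pathway probe sets was −0.78 at 6 h and −1.32 at 12 h, while that of all probe sets was −0.03 and 0.05.

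**Figure D1:**
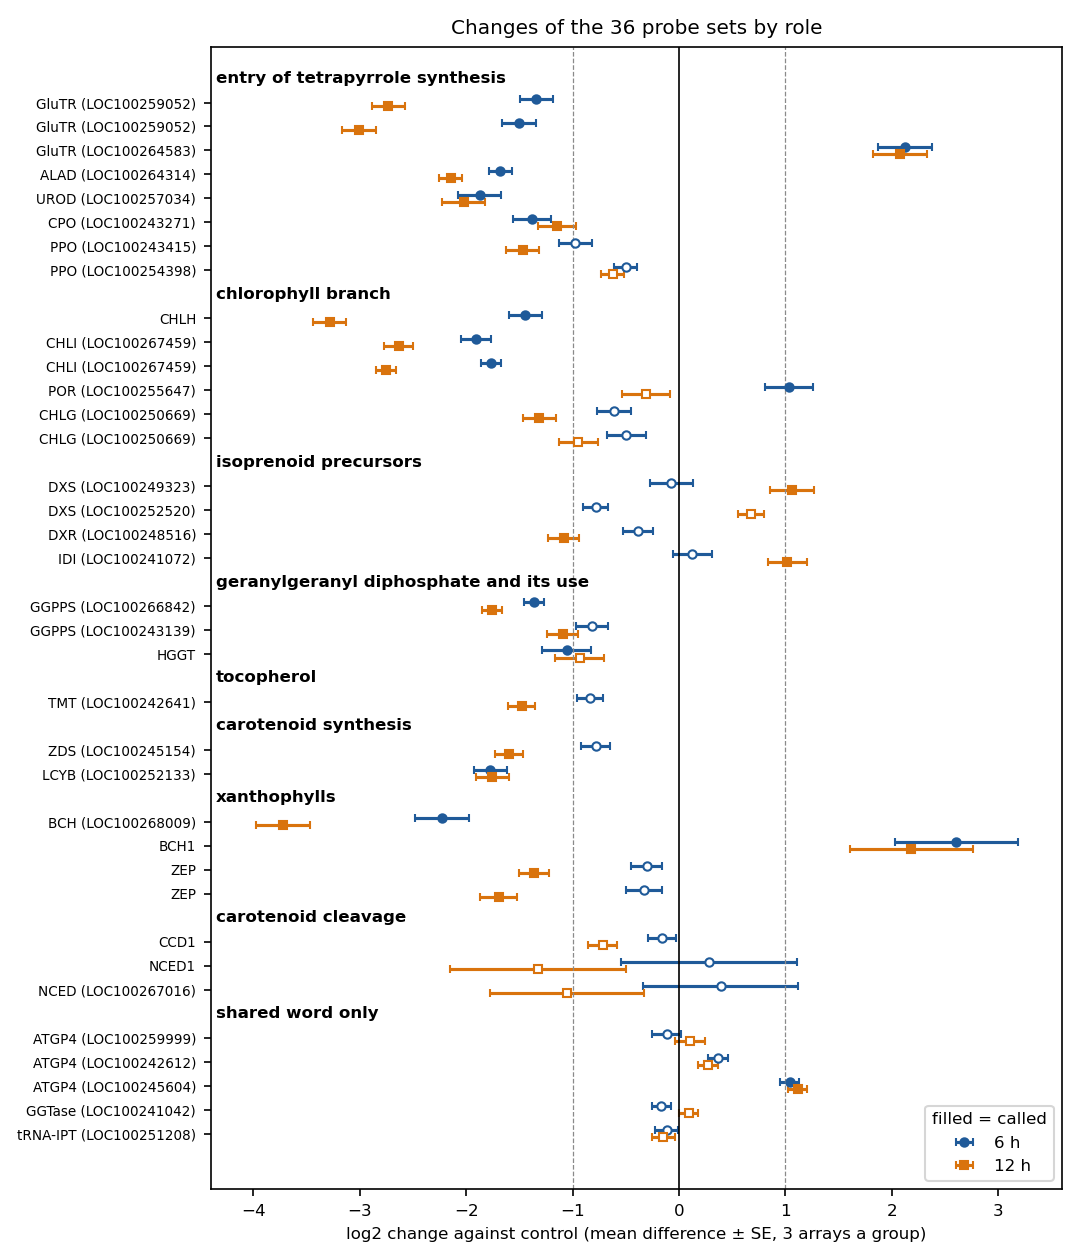
Log2 change against control of each of the 36 probe sets at 6 h (circles) and 12 h (squares), grouped by role, with the standard error of the fit as bars. Filled symbols were called, and dashed lines mark a 2-fold change. Of the 36, 12 were called lower at 6 h (33.3%) and 19 at 12 h (52.8%), beside 21.1% and 25.1% of the annotated probe sets.

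The number of calls differed between the roles, which hold 1 to 8 probe sets, some of them repeats of 1 gene. Differences between the roles were not tested. Of the annotated probe sets, 21.1% fell and 17.8% rose at 6 h, and 25.1% fell and 21.6% rose at 12 h. Of the 8 probe sets at the entry of tetrapyrrole synthesis, 5 fell and 1 rose at 6 h, and 6 fell and 1 rose at 12 h. The 6 of the chlorophyll branch held 3 that fell and 1 that rose at 6 h, and 4 that fell at 12 h. None of the 4 probe sets for isoprenoid precursors was called at 6 h, and at 12 h 2 rose and 1 fell. Carotenoid synthesis, xanthophylls, tocopherol and geranylgeranyl diphosphate together held 10 probe sets, and the only one of them called higher at either time was BCH1, whose control arrays all lay under 53.6, so that it could be listed only through its UV-C arrays.

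**Figure D2:**
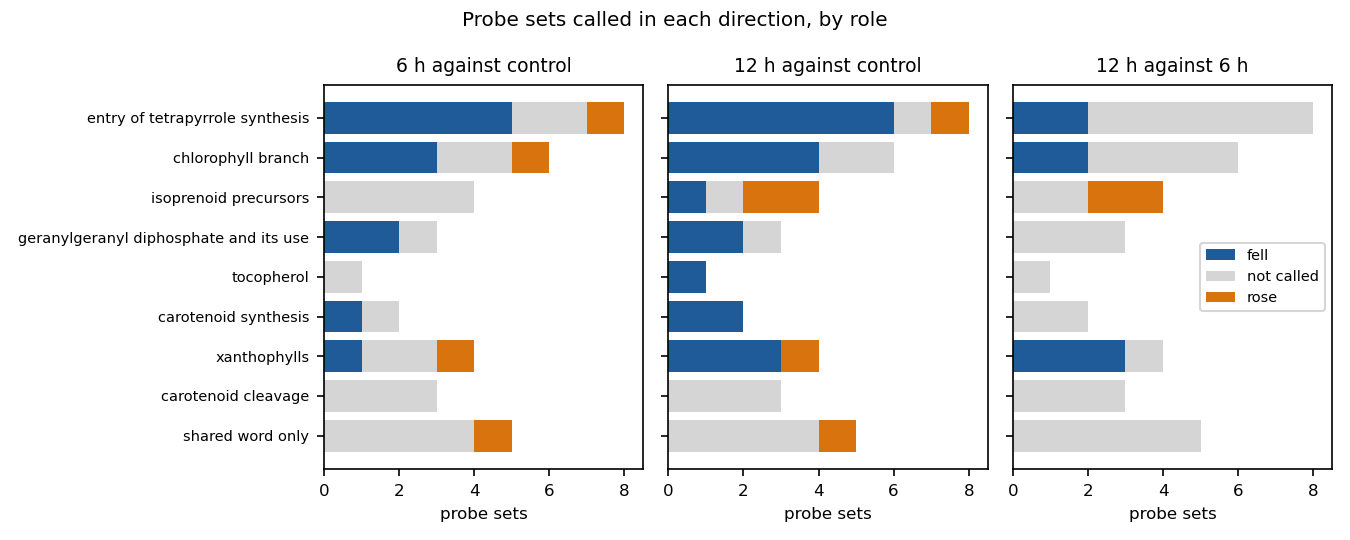
Number of probe sets that fell, rose or were not called in each role, with a panel for each UV-C time set against control and a panel that sets the later time against the earlier. Isoprenoid precursors are the only role with probe sets that rose between 6 h and 12 h (2 of 4, beside 3.45% of the annotated probe sets). No member of carotenoid cleavage was called in any panel.

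Glutamyl-tRNA reductase, which makes the first intermediate particular to tetrapyrroles, was represented by probe sets of different genes that moved in opposite directions. The probe set of LOC100259052 read 4952, 4190 and 5999 on the control arrays, 2194, 1846 and 1893 at 6 h, and 653, 860 and 759 at 12 h. Each group lay wholly below the one before it. The mean intensity of LOC100259052 was 5047 ± 909 (SD, n = 3) in the control, 1977 ± 189 at 6 h and 757 ± 103 at 12 h. It fell 2.53-fold at 6 h (log2 −1.34 ± 0.15 SE, adjusted p = 4.56e-05 from limma) and 6.63-fold at 12 h (log2 −2.73 ± 0.15, adjusted p = 2.21e-07), and the drop from 6 h to 12 h was itself called (log2 −1.39 ± 0.15, adjusted p = 0.000249). A further probe set of the same gene fell 2.84-fold and 8.02-fold.

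The other gene named glutamyl-tRNA reductase, LOC100264583, went the opposite way. Its name rests on a similarity that the annotation calls weak, while that of both LOC100259052 probe sets is called moderate. The intensity of LOC100264583 was 236, 133 and 112 in the control, 631, 676 and 683 at 6 h, and 673, 777 and 504 at 12 h. All 6 UV-C arrays stood above all 3 control arrays, and the UV-C groups overlapped. LOC100264583 rose 4.36-fold at 6 h (log2 2.12 ± 0.26, adjusted p = 6.34e-05) and 4.22-fold at 12 h (log2 2.08 ± 0.26, adjusted p = 5.9e-05). It was the only member at the entry of tetrapyrrole synthesis that rose.

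The next enzymes of the trunk fell. Delta-aminolevulinic acid dehydratase (LOC100264314), which joins a pair of aminolevulinic acid molecules into porphobilinogen, read 2733, 2769 and 3163 in the control, 1006, 901 and 808 at 6 h and 678, 662 and 616 at 12 h. No overlap existed between the 3 groups. It fell 3.2-fold (log2 −1.68 ± 0.11, adjusted p = 1.02e-06) and 4.42-fold (log2 −2.15 ± 0.11, adjusted p = 1.23e-07). Uroporphyrinogen decarboxylase (LOC100257034) trims the side chains of the first ring-shaped intermediate, and it fell 3.66-fold at 6 h and 4.06-fold at 12 h. Coproporphyrinogen III oxidase (LOC100243271), the step after it, fell 2.6-fold and 2.22-fold. In these last 2 genes the 6 h and 12 h arrays overlapped, with means of 154 ± 32.9 and 139 ± 29.4 for LOC100257034 and 335 ± 52.1 and 397 ± 96.1 for LOC100243271.

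Protoporphyrinogen oxidase makes protoporphyrin, the last intermediate that heme and chlorophyll share. Its probe set LOC100243415 read 410, 359 and 287 in the control, 193, 167 and 173 at 6 h and 150, 120 and 111 at 12 h. It fell 2.77-fold at 12 h (adjusted p = 2.07e-05), and at 6 h it was 1.96-fold lower (adjusted p = 0.000451), just short of the fold threshold. It passed that threshold without control replicate 3 (log2 −1.11), without UV-C 6 h replicate 1 (log2 −1.04) and with the arrays centred on the hybridization controls (log2 −1.13). A related probe set, LOC100254398, was 1.42-fold and 1.54-fold lower (adjusted p = 0.00303 and 0.000655) and was not called. The control arrays of both probe sets stood above all their UV-C arrays.

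Magnesium chelatase, which inserts magnesium into protoporphyrin, showed one of the largest drops among the members. CHLH, its large porphyrin-binding subunit, read 4441, 3454 and 4840 in the control, 1472, 1517 and 1651 at 6 h and 491, 456 and 362 at 12 h. Each step lay apart from the last. CHLH fell 2.72-fold at 6 h (log2 −1.44 ± 0.15, adjusted p = 2.74e-05) and 9.71-fold at 12 h (log2 −3.28 ± 0.15, adjusted p = 6.87e-08), and the difference between the times was 3.57-fold (log2 −1.84 ± 0.15, adjusted p = 6.83e-05), the largest of the members called between the times. The ATP-hydrolysing subunit chlI (LOC100267459) had 2 probe sets. The brighter read 4478, 4646 and 4306 in the control, 1313, 1314 and 1312 at 6 h, and 643, 616 and 736 at 12 h, and its 6 h arrays were almost equal. It fell 3.41-fold (log2 −1.77 ± 0.10) and 6.75-fold (log2 −2.75 ± 0.10), and the dimmer probe set fell 3.74-fold and 6.21-fold. Between 6 h and 12 h the brighter was 1.98-fold lower (adjusted p = 0.000131), under the fold threshold, which it passed without UV-C 12 h replicate 3 (log2 −1.06).

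Protochlorophyllide reductase, the light-dependent enzyme of flowering plants that turns protochlorophyllide into chlorophyllide, followed another course. LOC100255647 read 409, 485 and 434 in the control, 1105, 740 and 902 at 6 h, and 391, 466 and 248 at 12 h. Its 6 h arrays stood above all others, and the 12 h arrays overlapped with the control. It rose 2.05-fold at 6 h (log2 1.03 ± 0.23, adjusted p = 0.00323), was not called at 12 h (log2 −0.31 ± 0.23, adjusted p = 0.272), and fell 2.54-fold from 6 h to 12 h (log2 −1.34 ± 0.23, adjusted p = 0.00214). The rise at 6 h was close to the fold threshold and missed it without control replicate 1 (log2 0.98), without UV-C 6 h replicate 1 (log2 0.89) and with the arrays centred on the hybridization controls (log2 0.87), with adjusted p from 0.0102 to 0.0153 in these fits.

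Chlorophyll synthetase (LOC100250669) attaches the prenyl tail and completes chlorophyll. Its brighter probe set read 1824, 1622 and 1769 in the control, 1149, 1024 and 1250 at 6 h and 760, 832 and 542 at 12 h. It fell 2.48-fold at 12 h (log2 −1.31 ± 0.16, adjusted p = 5.08e-05) and was 1.53-fold lower at 6 h (adjusted p = 0.00841). The dimmer probe set of this gene was 1.93-fold lower at 12 h (adjusted p = 0.00139) and was not called. It passed the fold threshold without control replicate 2 (log2 −1.09), without UV-C 12 h replicate 1 (log2 −1.02) or 2 (log2 −1.07), and with centring on the hybridization controls (log2 −1.09). All 6 UV-C arrays lay below the control arrays in both probe sets.

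**Figure D3:**
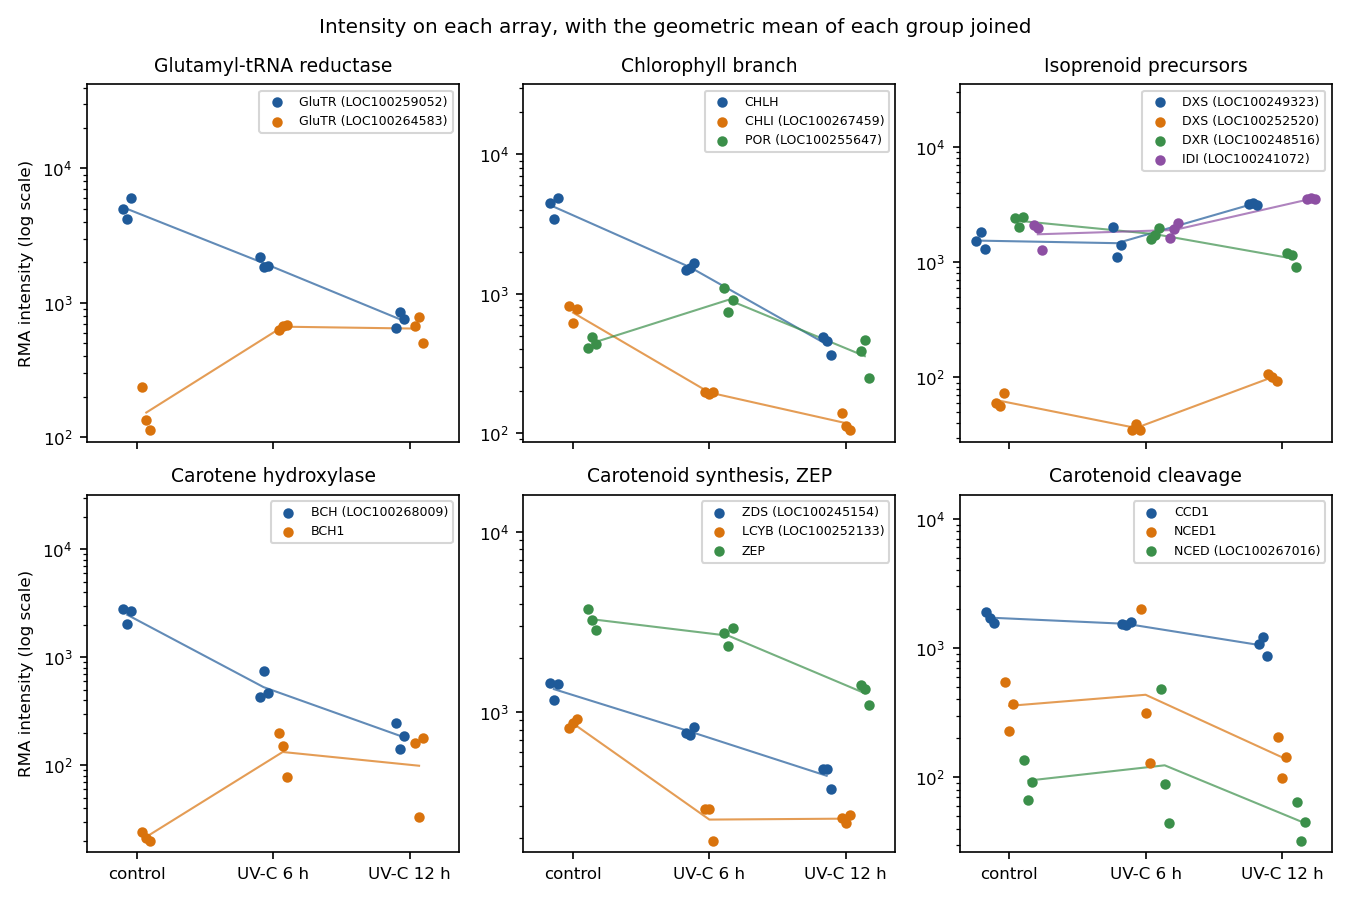
RMA intensity on a log axis for selected members on each of the 9 arrays (points), with lines joining the geometric means of the control, UV-C 6 h and UV-C 12 h groups. Where a gene has 2 probe sets, 1 is drawn. The 2 genes named glutamyl-tRNA reductase (LOC100264583 by weak similarity) move in opposite directions, and NCED1 at 6 h runs from 129 to 2016.

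The isoprenoid precursor genes were the only role in which probe sets were called higher at 12 h without having been called at 6 h. The methylerythritol phosphate pathway starts with 1-deoxyxylulose-5-phosphate synthase. LOC100249323, 1 of the 2 genes named so, read 1539, 1820 and 1290 in the control, 1999, 1110 and 1400 at 6 h, and 3201, 3284 and 3133 at 12 h. Its control and 6 h arrays overlapped, and the 12 h arrays stood above both. It rose 2.09-fold at 12 h (log2 1.06 ± 0.20, adjusted p = 0.00115) and 2.2-fold from 6 h to 12 h (log2 1.14 ± 0.20, adjusted p = 0.0028), with no call at 6 h (log2 −0.07 ± 0.20, adjusted p = 0.801). Without control replicate 3 its log2 change at 12 h was 0.94, and without UV-C 6 h replicate 2 its change from 6 h to 12 h was 0.94 too, both under the fold threshold. With the arrays centred on the hybridization controls the change at 12 h was log2 0.92.

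The dim gene LOC100252520, also named 1-deoxyxylulose-5-phosphate synthase, read 59.4, 57.0 and 72.8 in the control, 35.1, 39.7 and 34.7 at 6 h and 108, 101 and 92.7 at 12 h. All 3 groups lay apart, with the 6 h group lowest and the 12 h group highest. It was 1.72-fold lower at 6 h (adjusted p = 0.000336) and 1.6-fold higher at 12 h (adjusted p = 0.000722), neither past the fold threshold, and it rose 2.76-fold between the times (log2 1.46 ± 0.12, adjusted p = 6.37e-05). At 6 h all its arrays lay under 53.6, the lowest maximum that any probe set of the annotated tables reached. With 16 added to every intensity its rise from 6 h to 12 h was 2.22-fold.

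The next enzyme, 1-deoxyxylulose-5-phosphate reductoisomerase (LOC100248516), moved the other way. It read 2407, 2004 and 2461 in the control, 1575, 1725 and 1960 at 6 h and 1205, 1154 and 900.1 at 12 h, and each group lay below the one before. It fell 2.12-fold at 12 h (log2 −1.08 ± 0.14, adjusted p = 0.000101), a call lost without UV-C 12 h replicate 3 (log2 −0.95) and with the arrays centred on their median (log2 −0.94). Isopentenyl diphosphate isomerase (LOC100241072) interconverts the 2 building blocks of all isoprenoids. It read 2086, 1974 and 1286 in the control, 1617, 1928 and 2195 at 6 h and 3510, 3580 and 3504 at 12 h. Only the 12 h arrays stood apart. It rose 2.03-fold at 12 h (log2 1.02 ± 0.18, adjusted p = 0.000812), and the rise was under 2-fold without control replicate 3 (log2 0.80), with the arrays centred on the hybridization controls (log2 0.88) and, narrowly, after a second quantile normalization.

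Geranylgeranyl diphosphate synthase (LOC100266842), which builds the prenyl chain shared by these pigments, read 2063, 1927 and 1759 in the control, 727, 707 and 801 at 6 h and 550.1, 579.9 and 566.9 at 12 h. Its 3 groups lay apart. It fell 2.57-fold (log2 −1.36 ± 0.10, adjusted p = 1.66e-06) and 3.38-fold (log2 −1.76 ± 0.10, adjusted p = 1.95e-07). A probe set named as related to this synthase, LOC100243139, fell 2.13-fold at 12 h (adjusted p = 0.000121, under 2-fold at log2 −0.95 with the arrays centred on their median) and was 1.77-fold lower at 6 h (adjusted p = 0.00101). HGGT, homogentisate geranylgeranyl transferase, known from cereals as the entry to tocotrienols, fell 2.07-fold at 6 h (log2 −1.05 ± 0.23, adjusted p = 0.00317). It missed the fold threshold at 12 h (log2 −0.93 ± 0.23, adjusted p = 0.00565), with overlapping arrays at the 2 times and means of 259.9 ± 83.0 and 274 ± 45.0. Its call at 6 h was lost without control replicate 2 (log2 −0.97), without UV-C 6 h replicate 2 (log2 −0.78) and with median centring (log2 −0.92), and at 12 h it was called without control replicate 3 (log2 −1.02), without UV-C 12 h replicate 2 (log2 −1.06) and with centring on the hybridization controls (log2 −1.07).

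Gamma-tocopherol methyltransferase (LOC100242641), the last step to alpha-tocopherol, the main vitamin E form of leaves, read 3949, 3521 and 3745 in the control, 1968, 2108 and 2210 at 6 h, and 1527, 1409 and 1122 at 12 h. Each group lay below the one before. It was 1.78-fold lower at 6 h (adjusted p = 0.000277) and fell 2.78-fold at 12 h (log2 −1.48 ± 0.12, adjusted p = 3.84e-06).

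Both probe sets of carotenoid synthesis were lower. Zeta-carotene desaturase (LOC100245154) works on the way to lycopene, and it read 1459, 1161 and 1424 in the control, 768, 746 and 825 at 6 h and 484, 481 and 374 at 12 h. It was 1.72-fold lower at 6 h (adjusted p = 0.00066) and fell 3.02-fold at 12 h (log2 −1.60 ± 0.13, adjusted p = 3.55e-06). Lycopene beta cyclase (LOC100252133), which closes the rings of beta-carotene, read 811, 875 and 913 in the control, 290.4, 289.9 and 193 at 6 h and 257, 243 and 269.7 at 12 h. It fell 3.42-fold at 6 h (log2 −1.77 ± 0.16, adjusted p = 6.83e-06) and 3.37-fold at 12 h (log2 −1.75 ± 0.16, adjusted p = 5.37e-06), and the UV-C groups overlapped. The desaturase groups lay apart at each step, while the cyclase was at its 12 h level by 6 h (difference log2 0.02 ± 0.16, adjusted p = 0.95).

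Beta-carotene hydroxylase, which makes zeaxanthin from beta-carotene, had 2 genes. LOC100268009 read 2815, 2021 and 2656 in the control, 425, 742 and 469.7 at 6 h and 249, 143 and 186 at 12 h, with no overlap between the groups. It fell 4.67-fold at 6 h (log2 −2.22 ± 0.25, adjusted p = 4.2e-05) and 13.2-fold at 12 h (log2 −3.72 ± 0.25, adjusted p = 8.05e-07), the largest drop of any member at both times, and 2.82-fold between the times (adjusted p = 0.00217). BCH1 was dim in the control, at 24.4, 21.2 and 20.0. No listed probe set stays under 53.6 on every array. As a listed one, BCH1 thus had to stand above its control on at least 1 UV-C array, and its values are given as a description. It read 197, 152 and 78.2 at 6 h and 161, 33.5 and 181 at 12 h. All 6 UV-C arrays stood above the control arrays, but their own spread was wide. The fitted difference of BCH1 from the control was 6.1-fold at 6 h (log2 2.61 ± 0.58) and 4.55-fold at 12 h (log2 2.19 ± 0.58), and it counts among the members called higher. Without UV-C 12 h replicate 2, its low array, the difference at 12 h was 7.83-fold. With 16 added to every intensity the differences were 3.97-fold and 3.17-fold.

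Zeaxanthin epoxidase, which turns zeaxanthin into violaxanthin and with its partner violaxanthin de-epoxidase runs the xanthophyll cycle, was called lower at 12 h and not at 6 h. The brighter of 2 ZEP probe sets read 3746, 3260 and 2871 in the control, 2732, 2336 and 2921 at 6 h and 1411, 1335 and 1092 at 12 h. Its control and 6 h arrays overlapped, and the 12 h arrays lay below both. It was not called at 6 h (log2 −0.30 ± 0.14, adjusted p = 0.106), fell 2.57-fold at 12 h (log2 −1.36 ± 0.14, adjusted p = 1.84e-05) and fell 2.08-fold between the times (adjusted p = 0.000694). The dimmer probe set fell 3.24-fold at 12 h and 2.58-fold between the times, with no call at 6 h (log2 −0.33 ± 0.17, adjusted p = 0.145). The drop of the brighter probe set between the times was under 2-fold without UV-C 6 h replicate 3 (log2 −0.99) or UV-C 12 h replicate 3 (log2 −0.95).

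None of the 3 carotenoid cleavage probe sets that the search found was called. A further one, LOC100251100, was not matched by the search: it is titled a neoxanthin cleavage enzyme in the annotation and nine-cis-epoxycarotenoid dioxygenase 4 in the study, which chose it for its change. What it cuts, and whether it takes part in abscisic acid synthesis, was not tested. It read 2285, 1896 and 1010 in the control, 411, 551 and 922 at 6 h and 178, 189 and 60.0 at 12 h, with no overlap between the groups. It fell 2.76-fold at 6 h (adjusted p = 0.0273), 13.0-fold at 12 h (adjusted p = 8.67e-05) and 4.7-fold between the times (adjusted p = 0.00735). CCD1, a carotenoid cleavage dioxygenase that releases aroma compounds, was 1.64-fold lower at 12 h (log2 −0.72 ± 0.13, adjusted p = 0.000943) and differed little at 6 h (log2 −0.16 ± 0.13, adjusted p = 0.359). The dioxygenases of the NCED type cut epoxycarotenoids in the committed step to abscisic acid. NCED1 read 545, 226 and 368 in the control, 2016, 317 and 129 at 6 h, and 206, 98.4 and 143 at 12 h. A single 6 h array stood far above the rest, and the other 6 h arrays lay within or below the control range. LOC100267016, also annotated as a 9-cis-epoxycarotenoid dioxygenase, read 137, 66.4 and 92.0 in the control, 483, 89.2 and 43.8 at 6 h and 64.6, 32.2 and 45.0 at 12 h. Both probe sets ranked the 9 arrays in the same order, and whether their probes detect the same transcripts was not tested.

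The wide spread at 6 h sets what could be said of the NCED genes. NCED1 was 2.5-fold lower at 12 h (log2 −1.32 ± 0.83, adjusted p = 0.202) and LOC100267016 was 2.07-fold lower (log2 −1.05 ± 0.73, adjusted p = 0.246), and the 12 h arrays of both lay below all control arrays. Because all groups share 1 estimate of the spread, the 6 h arrays entered these tests. With only the control and 12 h groups in the fit, both passed (adjusted p = 0.0161 and 0.0244), as they did without UV-C 6 h replicate 1 (adjusted p = 0.0268 and 0.0348). At 6 h NCED1 was at log2 0.29 ± 0.83 with all arrays and at log2 −0.82 without that replicate, and neither was called. Without UV-C 6 h replicate 3, the low array of that group, the change from 6 h to 12 h was called for NCED1 (log2 −2.48, adjusted p = 0.0366) and for LOC100267016 (log2 −2.19, adjusted p = 0.0401). That fit keeps replicate 1, the array that stood far above the rest. Without replicate 1 instead, neither was called (log2 −0.50, adjusted p = 0.519 for NCED1, and log2 −0.46, adjusted p = 0.478 for LOC100267016).

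The test of 12 h against 6 h sorts the members by their late course. By any amount, 25 of the 31 pathway probe sets were lower at 12 h than at 6 h. So were 7160 of all 16436 probe sets and 5050 of the 10471 annotated ones. Of the 31, 7 were called lower (22.6%), beside 4.54% of all probe sets and 6.95% of the annotated ones. The 7 called lower were both probe sets of the glutamyl-tRNA reductase LOC100259052, CHLH, protochlorophyllide reductase, the hydroxylase LOC100268009 and both of ZEP. The only calls in the other direction were the 2 genes for 1-deoxyxylulose-5-phosphate synthase (6.45%). Of all probe sets 2.34% were called higher between the times, and of the annotated ones 3.45%. Over all probe sets the median difference between the times was 0.05 on the log2 scale, against −0.56 for the 31.

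**Figure D4:**
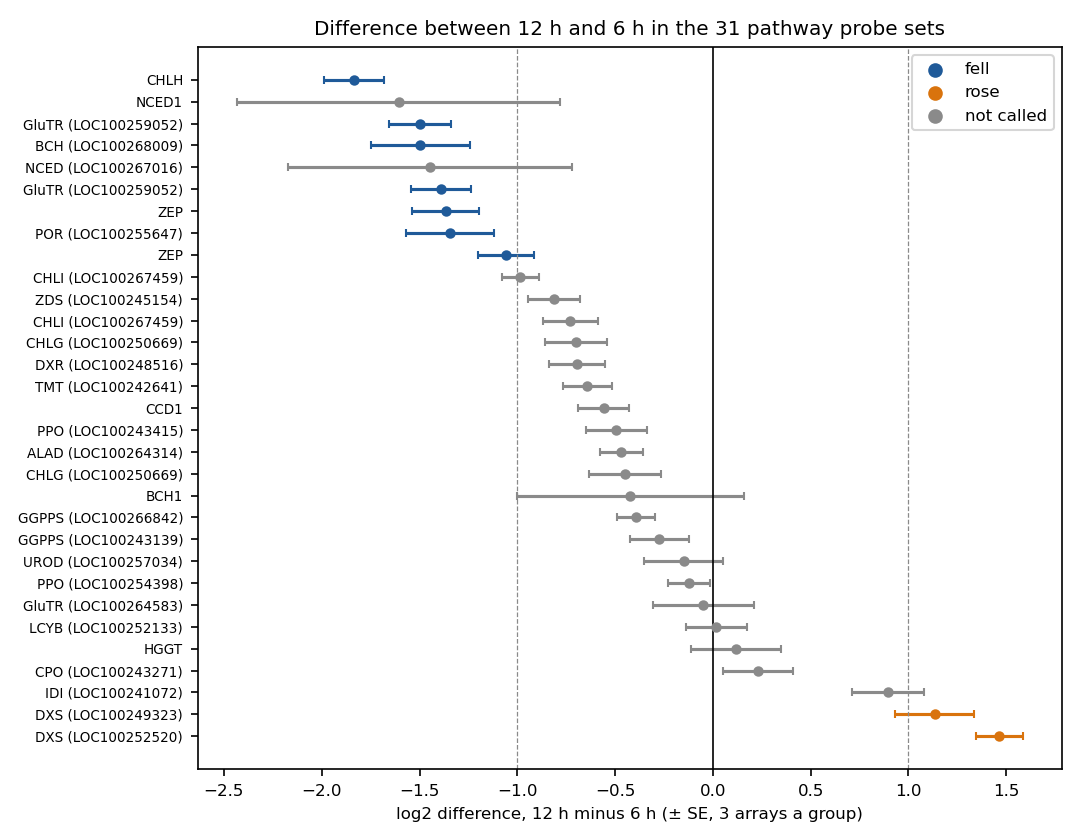
Log2 difference between 12 h and 6 h for each of the 31 pathway probe sets, ordered by size, with the standard error of the fit as bars. CHLH is lowest at −1.84, LOC100252520 is highest at 1.46, and the long bars of NCED1 and LOC100267016 keep them uncalled although their differences are −1.61 and −1.45.

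Of the 5 probe sets that share only a word with the pathways, 1 was called, higher at both times (20%). Of the annotated probe sets, 17.8% rose at 6 h and 21.6% at 12 h. The ATGP4 probe set LOC100245604, named after a geranylgeranylated protein of Arabidopsis, read 644, 613 and 637 in the control, 1353, 1199 and 1353 at 6 h and 1316, 1424 and 1369 at 12 h. It rose 2.06-fold (adjusted p = 6.36e-06) and 2.17-fold (adjusted p = 2.84e-06), and with the arrays centred on the hybridization controls both rises were just under 2-fold (log2 0.88 and 0.98). The other 4 were not called in any comparison, and the largest change among them was log2 0.37 ± 0.09 at 6 h for LOC100242612. The protein geranylgeranyl transferase LOC100241042 and the tRNA isopentenylpyrophosphate transferase LOC100251208 stayed within log2 −0.16 and 0.09 of the control.

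Further genes of the same pathways were counted from word lists that the search did not use. Glutamate-1-semialdehyde aminotransferase (LOC100250737), the step after glutamyl-tRNA reductase, and heme oxygenase 1 (LOC100249078), which opens heme on the way to the phytochrome chromophore, were the 2 tetrapyrrole probe sets found, and both fell at each time. LOC100250737 fell 3.02-fold and 3.28-fold, and LOC100249078 fell 2.08-fold and 3.3-fold. The 2 further carotenoid probe sets, violaxanthin de-epoxidase (LOC100257865) and LOC100251100 described above, also fell at each time. LOC100257865 read 948, 961 and 822 in the control, 339, 350.2 and 385 at 6 h and 129.8, 153 and 133 at 12 h, falling 2.54-fold and 6.57-fold. Of 8 probe sets whose names hold words for plastid quinones, several of them subunits of other complexes, 1 was called, 4-hydroxyphenylpyruvate dioxygenase (LOC100248785), which makes homogentisate and rose 2.51-fold at 12 h.

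Probe sets listed for the cytosolic mevalonate route, the other source of isoprenoid units, were called in both directions. At 6 h 3 of its 15 probe sets were called higher (20%, annotated background 17.8%) and 2 lower (13.3%, background 21.1%). The 12 h calls were 4 higher (26.7%, background 21.6%) and 2 lower (13.3%, background 25.1%). The median log2 change was 0.02 at the earlier time and −0.16 at the later. Diphosphomevalonate decarboxylase (LOC100251686) read 89.1, 88.9 and 98.1 in the control, 122, 98.9 and 132 at 6 h and 497, 439 and 422 at 12 h. It rose 4.91-fold at 12 h (adjusted p = 1.82e-07) and was the one called between the times (log2 1.95). Farnesyl diphosphate synthase (LOC100232975) rose 2.26-fold and 2.44-fold. A squalene monooxygenase (LOC100262930), an enzyme of sterol synthesis, read 363, 326 and 856 in the control and fell 9.81-fold and 12.5-fold. All its 12 h arrays lay under 53.6. Both probe sets of another squalene monooxygenase gene, LOC100254037, were lower but not called (log2 −0.52 and −0.29 at 6 h, −0.63 and −0.21 at 12 h). The list also took in farnesylated proteins, a prenyl protease and a heme farnesyltransferase, which are no enzymes of the route. Without these 5, the 10 others held 1 called higher and 1 lower at 6 h, and 2 higher and 1 lower at 12 h. These are LOC100251686, LOC100232975 and LOC100262930. The medians above include the 5 and thus do not describe the enzymes of the route alone.

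A further 14 probe sets that the search did not match carry the names of these enzymes in the study's own lists, and 1 of them is the LOC100251100 given above. Another is a different probe set of the violaxanthin de-epoxidase gene LOC100257865, also given above, and it was 2.37-fold and 6.1-fold lower. The study chose the 14 for their change on these arrays, so that their direction is no independent evidence. Phytoene synthase (LOC100252385), the first enzyme of carotenoid synthesis, had 3 probe sets. One read 6245, 6046 and 5517 in the control, 695, 760.2 and 798 at 6 h, and 453, 439 and 469 at 12 h. All 3 were 7.91-fold to 9.09-fold lower at 6 h and 13.1-fold to 14.4-fold lower at 12 h. Chlorophyllase 2 (LOC100252835), an enzyme that removes the tail of chlorophyll, was 9.7-fold and 12.3-fold lower in its brighter probe set. A 1-deoxyxylulose-5-phosphate synthase (LOC100268079) read 228, 273 and 121 in the control and was 4.71-fold and 8.71-fold lower. All its UV-C arrays lay under 53.6. Another probe set of that name was 2.57-fold higher at 12 h, so that the probe sets of this enzyme did not move together. Without LOC100251100, 11 of the other 13 fell at 6 h, and at 12 h 12 fell and 1 rose.

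Genes that mark leaf cells changed on the same arrays. Beside the counts that follow, 21.1% of the annotated probe sets fell and 17.8% rose at 6 h, and 25.1% fell and 21.6% rose at 12 h. Of 45 probe sets for photosystem proteins, light-harvesting proteins, Rubisco and carbonic anhydrase, 17 fell (37.8%) and 0 rose at 6 h, and 30 fell (66.7%) and 1 rose at 12 h. Their summed intensity ranged from 418000 to 449000 on the control arrays, from 270000 to 292000 at 6 h and from 152000 to 166000 at 12 h. Of 15 markers of phloem and vascular tissue 8 fell and 1 rose at 6 h, and 9 fell and 1 rose at 12 h, with a summed intensity of 9470 to 11600, 5670 to 6460 and 4260 to 5550. Of these 15, 12 are cellulose synthase names, a family at work in many cell types, and 3 are sucrose transporters, of which VVSUC11 fell at both times while VVSUC27 and VVSUC12 were not called (log2 0.50 and 0.43 at 6 h). Of 11 markers of epidermis and cuticle 8 fell and 0 rose at each time, with a sum of 78000 to 97300, 40000 to 46200 and 30700 to 34400. Of 27 berry names 7 were called higher and 6 lower at 6 h (25.9% and 22.2%), 10 and 6 at 12 h (37% and 22.2%), and their sum was 80500 to 84400, 91100 to 94400 and 83600 to 92200. Flower and pollen names numbered 8, of which 2 rose and 3 fell at 6 h, then 2 and 4, and their sum was 11600 to 13700 in the control, 39100 to 40900 at 6 h and 44400 to 47100 at 12 h, so that it stood above the control on every UV-C array. The sum did not follow most of the 8 names, of which 5 were lower at 6 h and 6 at 12 h. Their median log2 change was −0.57 and −1.08, and the highest was 5.62 and 6.05. Among 3 root names the calls were 1 higher at 6 h, then 1 higher and 1 lower at 12 h, and their sum was 1600 to 1720, 1200 to 1380 and 1120 to 1470. No marker was at 0, since RMA gives every probe set a value. The part of these changes in those of the pigment genes was not tested, and in whole leaves fewer cells of a type and less RNA per cell cannot be told apart.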

How the data were processed

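The 9 arrays, 3 for each of the control, UV-C 6 h and UV-C 12 h groups, were analysed. Per the methods, the authors adjusted the background and quantile-normalized the scans by RMA and deposited 1 intensity per probe set and array on a linear scale, from 3.80 to 30874. Their annotated tables list 10471 probe sets, none of which has a maximum under 53.6, so that dimmer genes carry no name here. The SAM scores, q-values and fold changes in these tables were not used. The log2 of the intensities of 16436 probe sets, without 165 control probe sets, was fitted with limma 3.58.1 in R 4.3.3, all 3 groups together, with Benjamini-Hochberg adjustment over all of them (6 residual and 3.42 prior degrees of freedom). The step was tested on simulated data. The number of arrays limits the precision. Arrays of a group correlated at 0.988 or higher.

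The members and word lists were chosen with earlier results of these data known. In each role the text names up to 4 members with the largest change, every member called against the majority, and every member called between 6 h and 12 h, and the other members more briefly. Of the 32 genes, 30 were found in RefSeq's gene table (assembly ASM3070453v1), used for names only. Lists for later steps of the methylerythritol phosphate pathway and for terpene synthases matched no probe set and were not analysed here. Alternatives covered thresholds, the samples in the fit, the variance model, filters, scaling, an added intensity, a replicate block, averaging of probe sets and leaving out each array.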

Additional observations from a re-analysis of the deposited data

Results flagged for a closer look

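For 9 probe sets the changes at 6 h and at 12 h differed by a test of the difference itself (limma, adjusted p under 0.05 and at least 2-fold between 12 h and 6 h). The log2 difference, 12 h minus 6 h, was −1.39 and −1.50 in the probe sets of glutamyl-tRNA reductase LOC100259052, −1.84 in CHLH, −1.34 in protochlorophyllide reductase LOC100255647, −1.50 in beta-carotene hydroxylase LOC100268009, and −1.06 and −1.37 in the probe sets of ZEP. It was 1.14 and 1.46 in the 1-deoxyxylulose-5-phosphate synthase genes LOC100249323 and LOC100252520. Protochlorophyllide reductase was the one that was called higher at 6 h and not at 12 h, where its arrays overlapped with those of the control. Groups of 3 arrays were not tested for single outlying values.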

How the results depend on the processing

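Of the 6 counts of members called (lower and higher in 3 comparisons), only that of members lower at 12 h, 19, stayed within 1.5 times under every alternative (16 to 23). Without a fold threshold, 21 members were lower at 6 h and 17 between 6 h and 12 h, in place of 12 and 7. With the arrays centred on the hybridization controls, 2 rose at 6 h and 2 at 12 h, so that 2 of 15 and 2 of 23 calls were rises, in place of 4 of 16 and 5 of 24; this scaling moved the median change of all probe sets at 6 h to −0.19, and centring on the median moved that at 12 h to 0.19. Without probe sets of the _s_at, _x_at and _a_at types, 4 fell between 6 h and 12 h, because members of these types were left out. Leaving out 1 array at a time gave 11 to 13 lower and 3 to 4 higher at 6 h, 18 to 21 and 3 to 5 at 12 h, and 7 to 8 and 1 to 2 between the times; the lowest count of rises came without control replicate 3 at 12 h (3) and without UV-C 6 h replicate 2 between the times (1). Averaging the probe sets of each gene, an alternative chosen after seeing the data, left all 6 counts within 1.5 times.

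Of 108 changes of the 36 members, none that was called turned its sign. Uncalled changes turned sign as follows. With median centring, LOC100249323 was at 0.062, LOC100259999 at 0.0186 and LOC100251208 at 0.018 at 6 h. With centring on the hybridization controls, LOC100241072 was at −0.036 at 6 h, and at 12 h LOC100259999 was at −0.036 and LOC100241042 at −0.0465. After a second quantile normalization LOC100251208 was at 0.0008 at 12 h and 0.011 between the times. Leaving out 1 array at a time, the changes that turned sign ranged at 6 h from −0.30 to 0.12 in LOC100249323, −0.10 to 0.25 in LOC100241072, −0.82 to 1.16 in NCED1 and −0.59 to 1.14 in LOC100267016, at 12 h from −0.021 to 0.19 in LOC100259999, and between the times from −0.19 to 0.13 in LOC100264583, −0.16 to 0.33 in HGGT, −0.18 to 0.12 in LOC100252133 and −0.85 to 0.36 in BCH1. The cause was not tested.

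The replicate numbers did not pair the arrays: deviations of same-numbered arrays correlated between −0.16 and 0.14, and 1 of 9 pairs was over 0.1. With the replicate block the counts were 12 lower and 4 higher at 6 h, 19 and 5 at 12 h, and 7 and 2 between the times, as without it, and no call of a member changed.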
